A study of Mus musculus with 13 samples.

Results

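The endoplasmic reticulum chaperones and cofactors described here are 10 genes chosen by name, out of 19938 genes tested on the arrays: the chaperones Hspa5, Hsp90b1, Hyou1 and Calr, the disulfide isomerases Pdia4 and Pdia6, the co-chaperones Dnajb11 and Sdf2l1, and the secreted or lumenal factors Creld2 and Manf. The 10, and the other gene lists below, were chosen with earlier results of these data known. Shares of all genes printed beside their counts are therefore descriptive. Each of the 10 was read from the transcript cluster (the set of probes the array assigns to a gene) with the highest mean over all arrays. Primary mouse embryonic fibroblasts, bought from Millipore and grown in dishes at 37°C, were either left at 37°C (normothermia) or moved to mild hypothermia by setting the incubator to 32°C. RNA was taken at 0 h (37°C only) and at 0.5, 1, 2, 4, 8 and 18 h at each temperature, and measured on 13 Affymetrix Mouse Gene 1.0 ST arrays. Each array carried the mixed RNA of 3 dishes, so each temperature and time has 1 array and no replicate. The errors below therefore measure the spread between times within the models, and 1 array per condition limits their precision. The array at 0 h starts both series, and all comparisons below share arrays.

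Proteins that enter the secretory pathway are folded in the endoplasmic reticulum by chaperones that hold unfolded chains, by lectins that bind their sugars and by isomerases that form and reshuffle disulfide bonds. When unfolded chains build up, the sensors IRE1, PERK and ATF6 start the unfolded protein response, which raises the transcription of many chaperone genes through the factors ATF6 and XBP1. Fibroblasts secrete large amounts of collagen and other matrix proteins and so depend on this machinery.

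Many chaperone promoters carry the endoplasmic reticulum stress element (ERSE), in which a CCAAT box, known to bind the factor NF-Y, and the letters CCACG, known to bind ATF6 and XBP1, lie at a fixed distance. Promoters of 8 of the 10 genes were listed in the RefSeq table used (build GRCm38.p6, from 250 bases before to 50 bases after the start of the gene), those of Hyou1 and Manf were not. The letters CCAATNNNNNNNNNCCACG, searched on both strands, were found in 5 of the 8 (Hspa5, Hsp90b1, Creld2, Pdia6 and Calr), against 0.119% of all 32851 promoters of the table. The shorter ERSE-II, in which ATTGG (the CCAAT box read from the other strand) stands 1 base before CCACG, was found in Dnajb11, against 0.0365% of all promoters. The single elements are shown because they are what these promoters share, each 5′ to 3′ on the strand of the gene with 10 bases on both sides and with the match in capitals. Where the capitals begin with CGTGG, the element lies on the opposite strand.
Hspa5: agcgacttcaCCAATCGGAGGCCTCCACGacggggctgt
Hsp90b1: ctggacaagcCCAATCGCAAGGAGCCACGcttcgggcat
Creld2: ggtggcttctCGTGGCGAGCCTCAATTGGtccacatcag
Pdia6: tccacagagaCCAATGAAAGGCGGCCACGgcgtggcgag
Calr: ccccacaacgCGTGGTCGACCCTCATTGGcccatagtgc
Dnajb11: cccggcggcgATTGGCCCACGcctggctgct
These stretches lie at chr2:34772015-34772053 (Hspa5, plus strand), chr10:86705628-86705666 (Hsp90b1, minus strand), chr15:88819510-88819548 (Creld2, plus strand), chr12:17266481-17266519 (Pdia6, plus strand), chr8:84847065-84847103 (Calr, minus strand) and chr16:22857842-22857872 (Dnajb11, plus strand). The first base of the match lay 65 bases before the start of the gene in Hspa5, 98 in Pdia6, 126 in Creld2, 162 in Calr and 212 in Hsp90b1, while that of Dnajb11 lay just after the start. Hsp90b1 held a further match on the opposite strand, 107 bases before its start. The match in Hspa5 stands upstream of the TATA box sequence of the same promoter, of which the 250 bases before the start (chr2:34771840-34772089, plus strand) are shown with the element in capitals.
Hspa5 promoter: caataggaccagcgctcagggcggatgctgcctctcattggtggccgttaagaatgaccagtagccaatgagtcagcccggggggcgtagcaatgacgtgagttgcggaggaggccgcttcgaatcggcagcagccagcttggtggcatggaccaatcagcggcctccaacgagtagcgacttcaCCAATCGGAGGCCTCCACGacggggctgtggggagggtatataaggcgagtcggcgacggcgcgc
Sdf2l1, the gene with the largest difference between temperatures among the 10, held neither form in its window. It held 4 CCAAT boxes, none of them at the ERSE distance from its 3 copies of the other part, and 3 of these boxes lie in the 250 bases before its start (chr16:17132384-17132633, minus strand), where they are printed in capitals.
Sdf2l1 promoter: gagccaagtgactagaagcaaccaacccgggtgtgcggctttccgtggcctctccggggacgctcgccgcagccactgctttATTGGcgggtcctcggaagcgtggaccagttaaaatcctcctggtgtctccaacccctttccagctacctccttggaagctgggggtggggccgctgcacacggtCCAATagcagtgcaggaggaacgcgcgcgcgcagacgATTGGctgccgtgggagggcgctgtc
Pdia4 also held neither form. A CCAAT box was present in 8 of the 8 promoters and in 37.4% of all promoters. The other part of the element was likewise in 8 of 8, against 32.8%, and every ERSE or ERSE-II match contains both parts by its letters. The letters TGACGTGG, a form of the element known as UPRE, were in 0 of the 8 promoters and in 0.676% of all. The printed Hspa5 promoter holds tgacgtga, which differs in the last base and was not counted. Only exact letters were searched for each element, ERSE included, so sites that differ from them in any base were not counted. A match is a description of the letters, not of binding.

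From 4 h on, transcripts of these genes were lower at 32°C than at 37°C. At 0.5, 1 and 2 h the value at 32°C was below that at 37°C for 4, 2 and 4 of the 10 genes (39.51%, 48.72% and 46.69% of all genes). At 4, 8 and 18 h it was below for 10, 10 and 10 (50.26%, 50.4% and 44.09% of all genes). The median log2 difference of the 10 (32°C minus 37°C) was 0.013, 0.033 and 0.012 at the early times and -0.20, -0.26 and -0.37 at 4, 8 and 18 h. The median over all genes was -0.0010, -0.0016 and 0.021 at those late times. The late temperature effect, the mean log2 difference over 4, 8 and 18 h, was negative for 10 of the 10 genes (46.5% of all genes), with a median of -0.26 against 0.0099 over all genes. With p-values from limma adjusted by Benjamini-Hochberg over all genes and a threshold of 0.05, it passed for 5 of the 10, all lower: Sdf2l1, Creld2, Hyou1, Hspa5 and Manf. Over all 19938 genes, 2.15% were lower by the same call and 0.802% higher. RNA pooled from whole dishes cannot tell less RNA per cell from fewer cells that express a gene.

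**Figure D1:**
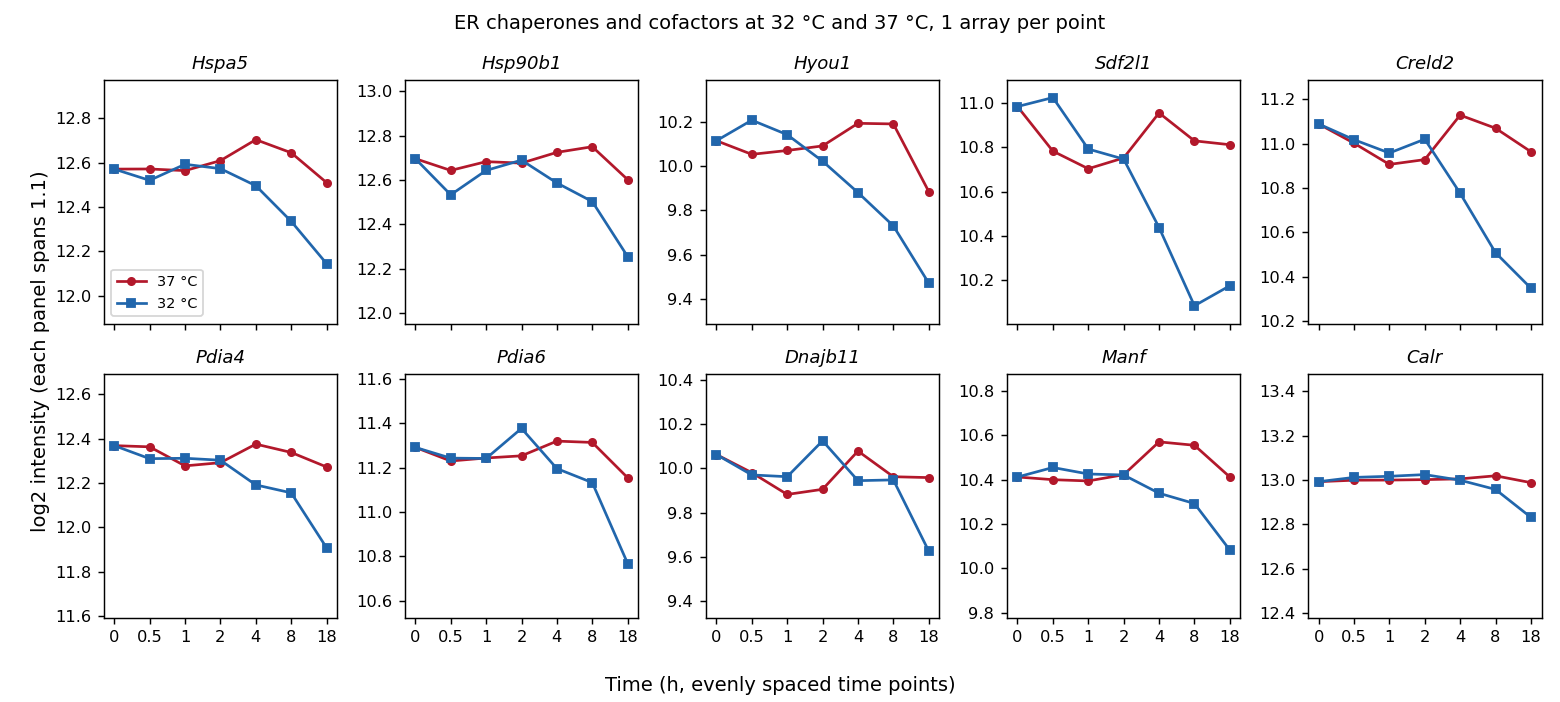
Log2 intensity (vertical axis, 1.1 units in each panel) of the 10 genes over the 7 time points (horizontal axis, in h, drawn at equal distances) at 37°C (circles) and 32°C (squares), 1 array per point, with the array at 0 h shared. From 4 h on every point at 32°C lies below that at 37°C, by 0.0060 (Calr at 4 h) to 0.74 (Sdf2l1 at 8 h).

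The plot of the 10 courses shows the arrays one by one. Sdf2l1 encodes a small lumenal protein that binds the BiP chaperone system together with DnaJ partners. Its log2 values at 37°C were 10.98, 10.78, 10.70, 10.75, 10.95, 10.83 and 10.81 at 0, 0.5, 1, 2, 4, 8 and 18 h, and at 32°C they were 11.02, 10.79, 10.75, 10.44, 10.08 and 10.18 from 0.5 to 18 h. The 3 arrays at 4, 8 and 18 h of hypothermia were the lowest of all 13, and the lowest point came at 8 h. Late at 32°C Sdf2l1 stood at 0.645 of the level at 37°C (log2 -0.63, SD 0.11 over the 3 times; limma SE 0.072, adjusted p = 0.00713). Without the arrays at 8 h the effect was -0.58 with an adjusted p of 0.0743 in limma. At 0.5 h the order was the other way, with 32°C above 37°C by 0.24.

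Creld2 encodes a resident protein of the endoplasmic reticulum with disulfide isomerase activity that can also be secreted. At 37°C it measured 11.09, 11.00, 10.91, 10.93, 11.13, 11.07 and 10.96, and at 32°C 11.02, 10.96, 11.02, 10.78, 10.51 and 10.35. The late arrays at 32°C lay below the other 10 arrays and went down at each step to 18 h, where Creld2 was at 0.598 of its 0 h level. The late effect was -0.51 (0.702-fold, SD 0.14 over 3 times; limma SE 0.068, adjusted p = 0.0118). It lost the call without 8 h (-0.48, adjusted p = 0.103 in limma) and without 18 h (-0.46, adjusted p = 0.0592).

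Manf encodes a small lumenal protein that is secreted on stress and protects neurons and other cells. Its log2 values at 37°C were 10.41, 10.40, 10.39, 10.42, 10.57, 10.56 and 10.41, and those at 32°C were 10.46, 10.43, 10.42, 10.34, 10.29 and 10.08. The late arrays at 32°C again lay below the other 10. The late effect was -0.27 (0.827-fold, SD 0.050 over 3 times; limma SE 0.058, adjusted p = 0.0413), the most even of those that passed over the 3 times. It missed the threshold whichever time from 0.5 to 18 h was left out, with adjusted p between 0.0528 and 0.220 in limma and effects between -0.30 and -0.25.

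Hspa5 (BiP, GRP78) is the Hsp70 of the endoplasmic reticulum and the chaperone that holds the stress sensors inactive. Its values were 12.57, 12.57, 12.56, 12.61, 12.70, 12.64 and 12.51 at 37°C and 12.52, 12.59, 12.57, 12.50, 12.34 and 12.14 at 32°C. The late arrays at 32°C were the lowest of all 13, and the array at 18 h stood at 0.744 of 0 h. The late effect was -0.29 (SD 0.080 over 3 times; limma SE 0.061, adjusted p = 0.0390). As for Manf, leaving out any time from 0.5 to 18 h put the adjusted p in limma above the threshold, between 0.0528 and 0.226, with effects from -0.34 to -0.26.

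Hyou1 (GRP170) is the large Hsp70-related protein that exchanges the nucleotide of Hspa5. It measured 10.11, 10.05, 10.07, 10.09, 10.19, 10.19 and 9.88 at 37°C and 10.21, 10.14, 10.02, 9.88, 9.73 and 9.47 at 32°C, a series that went down at each of the 5 steps after 0.5 h. The array at 18 h and 37°C was itself low and lay only just above that at 4 h and 32°C. The late effect was -0.40 (0.760-fold, SD 0.075 over 3 times; limma SE 0.067, adjusted p = 0.0247), and without 8 h or 18 h it was -0.36 and -0.39 with adjusted p of 0.180 and 0.0984.

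Hsp90b1 (GRP94), the Hsp90 of the endoplasmic reticulum, measured 12.70, 12.64, 12.68, 12.68, 12.73, 12.75 and 12.60 at 37°C and 12.53, 12.64, 12.69, 12.59, 12.50 and 12.255 at 32°C. The late arrays at 32°C lay below all arrays at 37°C, as did that at 0.5 h. Its late effect of -0.24 (95% interval -0.39 to -0.099, adjusted p = 0.0807 in limma) did not pass. Dnajb11 (ERdj3), a DnaJ partner of Hspa5, measured 10.06, 9.98, 9.88, 9.90, 10.08, 9.96 and 9.96 at 37°C and 9.97, 9.96, 10.12, 9.94, 9.95 and 9.63 at 32°C. Only its array at 18 h and 32°C stood below the 37°C range, and its late effect of -0.16 (-0.33 to 0.012, adjusted p = 0.306 in limma) did not pass.

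Pdia4 (ERp72) and Pdia6 (P5) are disulfide isomerases that work with Hspa5. Pdia4 measured 12.37, 12.36, 12.28, 12.29, 12.38, 12.34 and 12.27 at 37°C and 12.31, 12.31, 12.30, 12.19, 12.16 and 11.91 at 32°C. Its late arrays at 32°C were the lowest of the 13, with a late effect of -0.24 (95% interval -0.39 to -0.10, adjusted p = 0.0774 in limma) that did not pass. A second, dim transcript cluster of Pdia4 gave -0.27 (SD 0.16, 3 times). Pdia6 measured 11.29, 11.23, 11.24, 11.25, 11.32, 11.31 and 11.15 at 37°C and 11.24, 11.24, 11.38, 11.20, 11.13 and 10.77 at 32°C. The late arrays of Pdia6 overlapped between temperatures, since that at 18 h and 37°C was below that at 4 h and 32°C, and the late effect of -0.23 (-0.39 to -0.075, adjusted p = 0.115 in limma) did not pass.

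Calr (calreticulin), the lectin chaperone that also stores calcium, moved least. It spanned 12.99 to 13.02 over the 7 arrays at 37°C and measured 13.01, 13.02, 13.02, 12.999, 12.96 and 12.83 at 32°C. Its arrays at 8 and 18 h and 32°C lay below all those at 37°C. The late effect was -0.075 (95% interval -0.21 to 0.059, adjusted p = 0.559 in limma). Its mean log2 value was 12.99, near the top of the range of the table (14.15), and whether its probes still respond in proportion there was not tested.

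**Figure D2:**
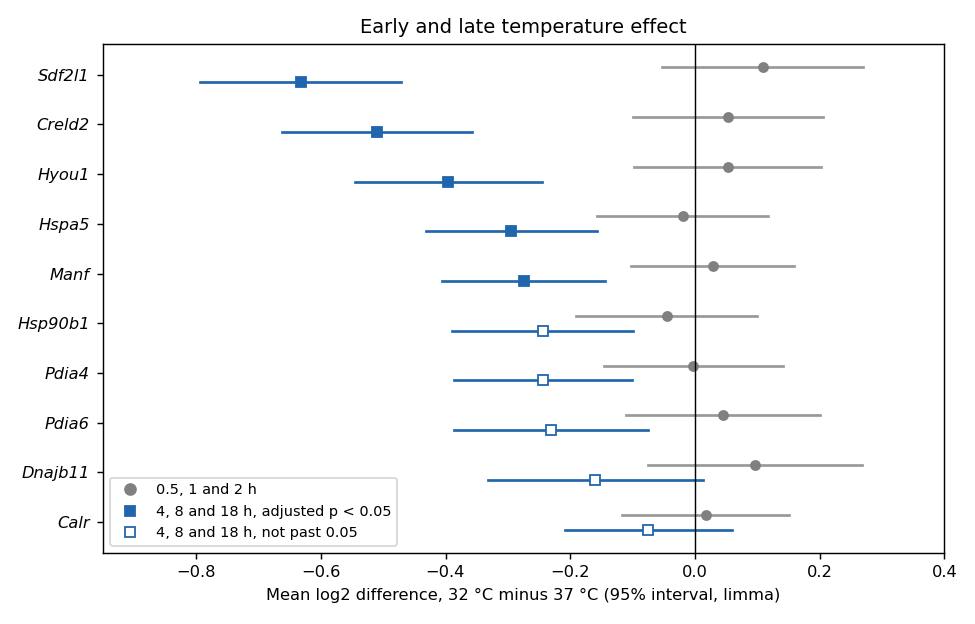
Mean log2 difference, 32°C minus 37°C (horizontal axis), with 95% intervals from limma, for each gene (vertical axis): grey circles for 0.5, 1 and 2 h, squares for 4, 8 and 18 h, filled where the adjusted p is under 0.05. All 10 early intervals span 0, and 8 of 10 late intervals lie below 0, those of Dnajb11 and Calr excepted.

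In the plot of early and late effects the early means lay between -0.045 (Hsp90b1) and 0.11 (Sdf2l1) and 0 of the 10 passed, nor did any at an unadjusted p under 0.05 in limma. Over all genes 0% were lower by the adjusted call, and 3.1% were lower and 4.18% higher by the unadjusted one. In the late effect 8 of the 10 were lower at an unadjusted p under 0.05, against 10.8% of all genes. In a fit of the 6 late arrays alone, where 0.01% of all genes passed as lower, 0 of the 10 passed (Sdf2l1 with an adjusted p of 0.0593), and 8 were lower at an unadjusted p under 0.05, against 10.3%. The difference between the late and the early effect was -0.74 for Sdf2l1 (SE 0.10, adjusted p = 0.0971), -0.56 for Creld2 (adjusted p = 0.131) and -0.45 for Hyou1 (adjusted p = 0.193), and 0 of the 10, like 0% of all genes, passed in limma. At an unadjusted p under 0.05, 8 of the 10 had a more negative late effect, against 7.69% of all genes, the others being Hsp90b1 and Calr. A change of the effect between both phases was thus not shown for any single gene after adjustment.

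The order of the genes by late effect was Sdf2l1, Creld2, Hyou1, Hspa5, Manf, Hsp90b1, Pdia4, Pdia6, Dnajb11 and Calr. The 95% interval of each gene overlapped that of the next, and those of Sdf2l1 (-0.79 to -0.47) and Calr, at both ends, did not overlap. Differences between genes were not tested, and the genes share the same arrays, so no order between them was shown.

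**Figure D3:**
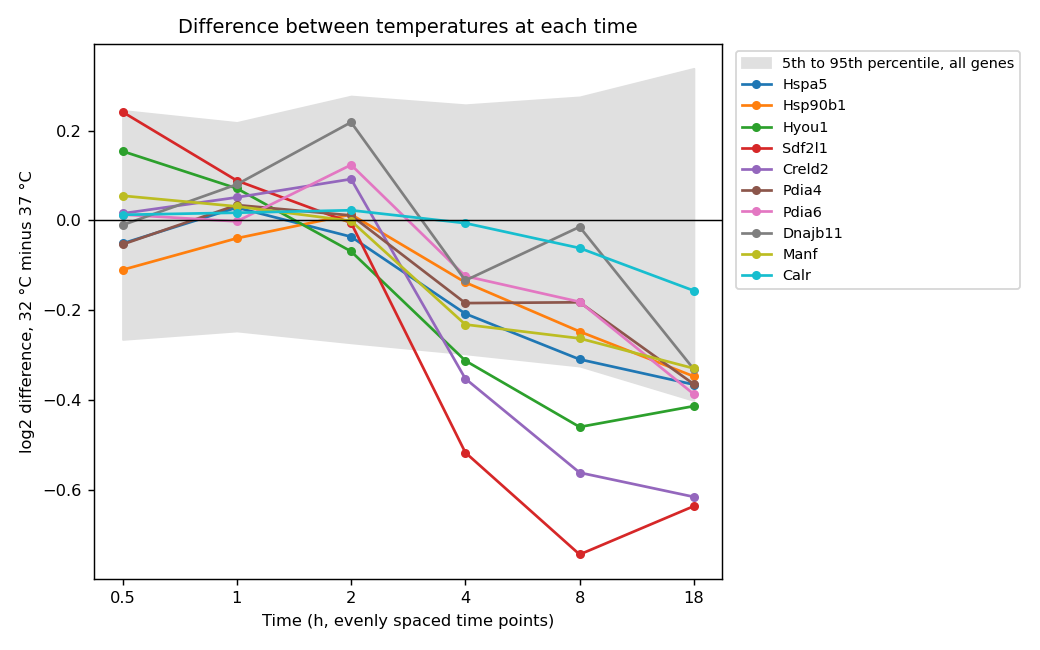
Log2 difference, 32°C minus 37°C (vertical axis), of each of the 10 genes at the 6 matched times (horizontal axis, in h, drawn at equal distances), with the 5th to 95th percentile of all 19938 genes as a grey band. Sdf2l1, Creld2 and Hyou1 lie below the band at 4, 8 and 18 h, and the other 7 genes lie within it.

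Against the spread of all genes, drawn as the band in the plot of differences by time, the distance of Sdf2l1, Creld2 and Hyou1 was large at each late time. The 5th percentile of all genes was -0.30, -0.32 and -0.40 at 4, 8 and 18 h. Sdf2l1 was at -0.52, -0.74 and -0.64, Creld2 at -0.35, -0.56 and -0.62 and Hyou1 at -0.31, -0.46 and -0.41. Sdf2l1 and Hyou1 thus had their largest difference at 8 h and Creld2 at 18 h. In 6 of the 10 genes (Hspa5, Hsp90b1, Creld2, Pdia6, Manf and Calr) the difference went down from 4 to 8 to 18 h, as in 16.9% of all genes. Dnajb11 returned to -0.014 at 8 h before -0.33 at 18 h.

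Counted by the order of single arrays, the 3 late arrays at 32°C lay below the 3 late arrays at 37°C in 8 of the 10 genes (not in Pdia6 and Calr), against 12.9% of all genes. They lay below the other 10 arrays in 6 genes (Hspa5, Hyou1, Sdf2l1, Creld2, Pdia4 and Manf), against 3.93%. The array at 18 h and 32°C was the lowest of all 13 in 9 genes, against 11.8%, the exception being Sdf2l1. In 0 of the 10 genes, and in 2.92% of all, was the array at 32°C lower at all 6 matched times.

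In the mean change from 0 h, the late gap lay mostly in the series at 32°C, with a smaller rise at 37°C at 4 h. At 37°C, 10 of the 10 genes were higher at 4 h than at 2 h (57.59% of all genes), 10 were lower at 18 h than at 8 h (52.64%), and 9 had their highest value at 4 or 8 h (36.4%), Sdf2l1 being highest at 0 h. At 32°C, 10 of the 10 were lower at 4 h than at 2 h (47.36%). The mean log2 change from 0 h over the 10 genes was 0.047, 0.0090 and -0.10 at 4, 8 and 18 h of normothermia and -0.17, -0.29 and -0.50 at the same times of hypothermia. The gap at 4 h thus held a value at 37°C above its start as well as a value at 32°C below it, whereas at 18 h both series were below.

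The study looked for genes that respond steadily with time, and along the order of the 7 time points the slope at 32°C was negative for all 10 genes (43.4% of all genes). Only Sdf2l1 passed in limma (-0.17 per time point, SE 0.022, adjusted p = 0.0375), against 0.0502% of all genes with a falling slope, and the adjusted p passed only without 2 h among the single times left out (up to 0.147, without 8 h). At an unadjusted p under 0.05, 9 of the 10 fell, all but Calr, against 9.35% of all genes. Creld2 (-0.12, adjusted p = 0.0564) and Hyou1 (-0.11, adjusted p = 0.0569) were closest to the threshold. At 37°C the slopes lay between -0.010 (Hyou1) and 0.017 (Manf), and 0 of the 10 passed in limma with or without adjustment (0% and 2.18% of all genes with a falling slope).

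Kendall's tau, which uses the order of the values alone, was -0.90 for Pdia4 at 32°C. It was -0.81 for Hyou1, Sdf2l1 and Creld2, -0.71 for Pdia6 and Manf, -0.62 for Hspa5, Hsp90b1 and Dnajb11 and -0.33 for Calr. By this measure the steadiest course was that of Pdia4, whose late effect was seventh of the 10 in size. A one-sided exact p under 0.05 was reached by 9 of the 10, against 8.44% of all genes. With 7 values the smallest two-sided exact p is 3.97e-04, and after adjustment 0% of all genes passed. The study took tau on single probes and then tested each gene for an excess of responding probes. Here tau was taken on the values of 1 transcript cluster per gene, so the result is not comparable with the gene counts of the study. At 37°C 0 of the 10 reached a one-sided exact p under 0.05 for a falling course, against 3.3% of all genes.

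The divergence from the common start, the log2 difference gained per time point when both series are drawn from 0 h, was negative for all 10 genes (46.2% of all genes). It passed in limma for 4, Sdf2l1, Creld2, Hyou1 and Hspa5, against 1.66% of all genes with a negative value. Of these Hspa5 gained -0.051 (SE 0.012, adjusted p = 0.0465), and the next genes were Hsp90b1 (-0.044, adjusted p = 0.0737) and Manf (-0.045, adjusted p = 0.0803). None of the 4 passed without the arrays at 4 h (adjusted p from 0.102 to 0.131), without 8 h (0.190 to 0.226) or without 18 h (0.152 to 0.195). Averaged over all 6 matched times, the early included, the temperature effect passed for 0 of the 10 (0.0552% of all genes lower) and for Hspa5, Hsp90b1 and Creld2 at an unadjusted p under 0.05 in limma (6.39%).

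The 10 courses resembled each other. Over the 13 arrays the Pearson correlation between 2 of the genes had a median of 0.89 over 45 pairs of genes, from 0.61 (Sdf2l1 with Dnajb11) to 0.96 (Pdia6 with Calr). Within the 7 arrays at 37°C alone the median was 0.69, with a lowest value of -0.062 (Dnajb11 with Calr), and along the 7 arrays from 0 h to 18 h at 32°C it was 0.93. These points share arrays and culture time. The 5 other genes most like the mean of the 10 over the 13 arrays were Stt3b, a catalytic subunit of the oligosaccharyltransferase that glycosylates chains entering the endoplasmic reticulum (r = 0.95), Atp10a, Mettl16, Slc5a3 and Pkp4 (r = 0.94 each). These 5 were picked by likeness over the same arrays, so a negative late effect follows in part from the choice. The late effect was -0.83 for Slc5a3, -0.59 for Mettl16 and -0.40 for Atp10a, which passed in limma, and -0.26 for Pkp4 and -0.14 for Stt3b, which did not. Without 8 h none of these 3 passed (adjusted p = 0.0743, 0.132 and 0.208 in limma).

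**Figure D4:**
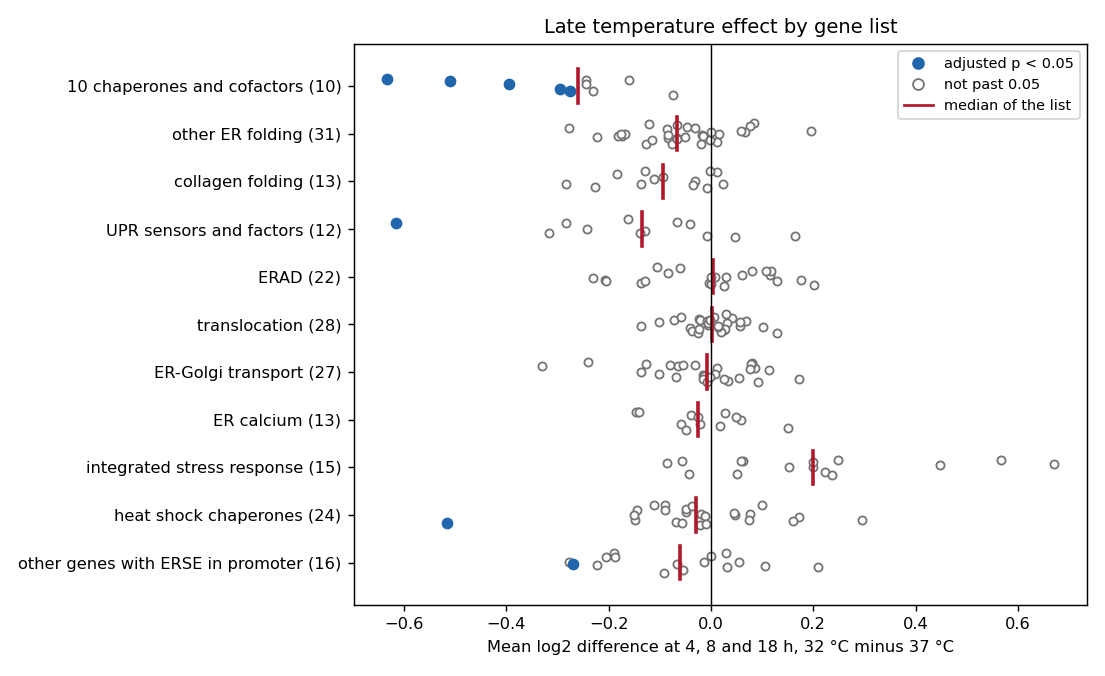
Mean log2 difference at 4, 8 and 18 h, 32°C minus 37°C (horizontal axis), of each measured gene by list (vertical axis, number of genes in brackets), filled where the adjusted p is under 0.05 in limma, with the median of each list as a vertical bar. The 10 chaperones and cofactors have a median of -0.26, and those of the other lists lie between -0.13 and 0.20. Canx, Dnajc3, Ero1b, Syvn1 and Derl3 are drawn both in their own list and among the other genes with ERSE.

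Other genes of the same organelle were set beside the 10 from lists of known pathway members, as drawn in the plot by gene list. Of 31 measured chaperones, co-chaperones and disulfide enzymes of the endoplasmic reticulum other than the 10, 23 had a negative late effect and 8 a positive one. Over all genes 46.5% were negative. The median of the list was -0.066. In limma 0 of the 31 passed, with 5 lower and 1 higher at an unadjusted p under 0.05 (10.8% of all genes lower). Among the 31 were calnexin (Canx, -0.067), the lectin partner of calreticulin, the isomerases Pdia3 (-0.083) and P4hb (-0.048), and the co-chaperones Dnajc3 (-0.22, adjusted p = 0.134) and Dnajb9 (-0.18, adjusted p = 0.352). The lowest unadjusted p in the divergence belonged to Sil1, an exchange factor of Hspa5 (0.038, late effect 0.20, adjusted p = 0.0988 and 0.136), and to Fkbp2 (-0.034, late effect -0.18, adjusted p = 0.184 and 0.227). Calr, Canx, Pdia3 and P4hb had late effects closer to 0 than -0.10. The 13 measured genes of collagen folding had a median of -0.093, with 11 negative and 2 positive. Of these 13, 0 passed and 3 were lower at an unadjusted p under 0.05 in limma. Serpinh1 (Hsp47), the collagen chaperone, was at -0.23 (adjusted p = 0.119) and the prolyl hydroxylase subunit P4ha3 at -0.28 (adjusted p = 0.0646).

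Of 12 measured sensors and transcription factors of the unfolded protein response, 10 had a negative late effect and 2 a positive one (46.5% of all genes negative). The median of the list was -0.13. At an unadjusted p under 0.05 in limma 4 were lower and 0 higher, against 10.8% of all genes lower. Nfya, the subunit of NF-Y that contacts the CCAAT box, passed as lower late at 32°C (-0.61, SE 0.13, adjusted p = 0.0418 in limma). It missed the threshold when any time but 2 h was left out (adjusted p up to 0.217, without 8 h). Its partners were at -0.32 (Nfyb, adjusted p = 0.0617) and -0.0086 (Nfyc). The ATF6 and XBP1 genes themselves were at 0.046 and -0.066, and the sensor genes Ern1 and Eif2ak3 at -0.24 and -0.14, none of them past the threshold. The array measures total transcript of Xbp1, not its spliced form.

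Of the 15 measured genes of the PERK arm and integrated stress response 12 had a positive late effect and 3 a negative one (46.5% of all genes negative). The median was 0.20, and 0 passed there in limma (6 higher at an unadjusted p under 0.05). The early effect was positive in 13 of the 15 (median 0.080, against 0.0079 over all genes). The late minus early effect was positive in 9 (median 0.038, against -0.00013). Along time the slope was negative in 12 of the 15 at 37°C (median -0.023, against 0.0022 over all genes). At 32°C it was negative in 6 (median 0.013), against 43.4% of all genes. For the other counts of this list the share of all genes is not given here. In the divergence from the common start Ppp1r15a (GADD34), which directs the dephosphorylation of eIF2α, gained 0.13 per time point (adjusted p = 0.0238) and Chac1, which degrades glutathione, gained 0.11 (adjusted p = 0.0346), against 1.17% of all genes with a positive call. Neither passed without 4 h or without 8 h (adjusted p = 0.109 and 0.150 in limma without 8 h). Atf4, Trib3 and Ddit3 had late effects of 0.15, 0.20 and -0.087 and did not pass.

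In the late effect 0 genes passed of the 22 measured for degradation from the endoplasmic reticulum (2 lower and 2 higher at an unadjusted p under 0.05 in limma), of the 28 for translocation into it (0 and 0), of the 27 for transport to and from the Golgi (2 and 1) and of the 13 for its calcium handling (1 and 1). The medians of these 4 lists lay between -0.026 and 0.0037. By lowest unadjusted p in the divergence their genes were Selenos (late effect 0.18) and Edem3 (-0.23), Spcs1 (0.13) and Ssr4 (0.10), Sec24a (-0.24) and Sec24c (-0.33), and Sdf4 (0.15) and Atp2a2 (-0.14), in that order of lists. Among 24 cytosolic and mitochondrial heat shock chaperones Hsph1, an exchange factor of cytosolic Hsp70, passed as lower (-0.52, SE 0.11, adjusted p = 0.0421 in limma) and the list had a median of -0.028, with Hspa1a at -0.091, Hspa8 at -0.021 and the chaperonin subunit Cct3 at 0.16. Hsph1 did not pass when any time but 4 h was left out (adjusted p up to 0.249, without 8 h). No test was made of whether these lists differ from the 10 genes.

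The ERSE letters were also found in promoters of 16 tested genes outside the 10, a search made after the values had been seen. Their late effect was negative in 11 and positive in 5 (46.5% of all genes negative), with a median of -0.061, and 1 passed as lower in limma (2.15% of all genes), Zfp57 (-0.27, adjusted p = 0.0421), which did not pass when any time was left out (adjusted p up to 0.218, without 8 h). Ero1b, the oxidase that feeds disulfide bonds to the isomerases, was at -0.28 (adjusted p = 0.0774), Syvn1, the ubiquitin ligase of degradation from the endoplasmic reticulum, at -0.21 (adjusted p = 0.316), and Derl3 of the same route at -0.00090. Ero1b, Syvn1 and Derl3, like Canx and Dnajc3 among the 16, were already counted in the lists above. Of 8 tested genes outside the 10 with ERSE-II, 7 had a negative late effect, with a median of -0.063, and 1 passed as lower, Rnf151 (-0.46, adjusted p = 0.0368 in limma), which did not pass without 0.5, 4, 8 or 18 h (adjusted p up to 0.221, without 8 h). Among the 8 members of the chaperone set with a listed promoter, the late effects of the 5 with ERSE ran from -0.51 (Creld2) to -0.075 (Calr), so the letters were found both in a gene that passed and in the gene that moved least.

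As a check of the labels, Cirbp, the cold-inducible RNA-binding protein, was 2.99-fold higher late at 32°C (log2 1.58, adjusted p = 0.00599 in limma, and 0.0671 without 8 h). Rbm3, the other cold-inducible gene of that list, had a late effect of 0.10 (adjusted p = 0.467 in limma), with differences of 0.013, 0.070 and 0.22 at 4, 8 and 18 h, and did not pass. Of the 3 transcript clusters of Rbm3 only the brightest was read. Its log2 value at 0 h was 13.15, above the mean of Calr, and whether its probes respond in proportion there was not tested. Fibroblast markers were present, with 12 of 12 above the median level of all genes, against 1 of 8 for macrophages, 0 of 8 for endothelium, 2 of 8 for epithelium and 1 of 7 for neural cells. The summed intensity of the fibroblast markers was 56082 to 57972 in the late arrays at 32°C and 59856 to 61289 in those at 37°C, and that of the macrophage markers was 651 to 769 and 609 to 640. That of the neural markers was 1322 to 1754 and 1836 to 2030. By gene, the late effect of the 7 neural markers was negative in 4 and positive in 3, with a median of -0.040. The part of these marker lists in the late differences of the chaperones was not tested.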

How the data were processed

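The authors deposited 1 linear intensity value per transcript cluster and array for 13 Affymetrix Mouse Gene 1.0 ST arrays, whose summarization and normalization from probes are not given in the sources used here. Array medians lay between 145 and 150 (149.762 at most, a spread of 0.046 in log2), so the deposited intensities were used as they are after log2 transformation. Of 28853 rows, 21789 carried 1 gene symbol and gave 19938 genes, the brightest row of a gene being used. Models were fitted over all genes with limma 3.58.1 (lmFit, eBayes) in R 4.3.3, with time point as a block in temperature comparisons, and p-values were adjusted by Benjamini-Hochberg. The procedure was run on simulated data with planted slopes steeper than any of the 10 genes showed. That run required the right sign and gives no error rate for effects of the size reported here. Kendall's tau was tested exactly in Python 3.11.15, and figures were drawn with matplotlib 3.10.9. Named genes are all 10 members, of other lists up to 4 genes in each direction that passed, or up to 2 by lowest unadjusted p, the cold-inducible genes and the 5 genes of most like course; further genes of the lists and those with promoter elements were chosen for their known role or after their values were seen. The members and lists were chosen with earlier results of these data known. Alternatives were quantile normalization, ranks, a level filter, all transcript clusters, a level-dependent prior, other time terms and leaving out each time. Precision is limited by 1 array per condition.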

Additional observations from a re-analysis of the deposited data

Results flagged for a closer look

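Creld2 and Calr were marked because each was higher at 32°C than at 37°C at all 3 early times and lower at all 3 late times. For Creld2 the late effect minus the early effect was -0.563 on the log2 scale, with differences of 0.016, 0.051 and 0.092 at 0.5, 1 and 2 h and -0.35, -0.56 and -0.62 at 4, 8 and 18 h. For Calr it was -0.0922, with early differences of 0.013, 0.017 and 0.023 and late ones of -0.0060, -0.062 and -0.16. The test of late minus early in limma missed the threshold for both (adjusted p = 0.131 and 0.715).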

How the results depend on the processing

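The count of the 10 genes called lower in limma depended on the settings. The shares of all genes called under the alternatives are not given here. A higher count under an alternative is therefore not read as a stronger result for the 10. For the late effect it was 5, and 3 after quantile normalization, 0 on ranks within each array, 3 with all transcript clusters tested, 7 among genes above the median level, 8 with a prior that depends on the level, 0 from the 6 late arrays alone, and 0 to 3 when 1 time was left out (0 without 8 h, 1 without 18 h). For the divergence it was 4, and 6 among genes above the median level or with the level-dependent prior, 3 after quantile normalization, 4 on the square root of hours, 0 on ranks, with all transcript clusters or with a separate term for 32°C, and 0 to 4 when 1 time was left out (0 without 4, 8 or 18 h, 1 without 0.5 h, 2 without 2 h). For the slope at 32°C it was 1, and 0 on ranks or with all transcript clusters, 3 among genes above the median level, 2 with the level-dependent prior, 4 on the square root of hours, and 0 to 2 when 1 time was left out (2 without 2 h). The slope at 37°C and the mean over matched times stayed at 0 in every alternative run. The sign of each of the 10 genes held in the late effect, the divergence and the slope at 32°C in every alternative except the divergence of Dnajb11, which ran from -0.030 to 0.0036 as single times were left out (the latter without 18 h). Outside the 10, with a separate term for 32°C the divergences of Edem3 (0.0035) and Sec24a (0.016) turned positive. The causes of these changes were not tested. The temperature comparisons were paired by time throughout.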
